A study of Mus musculus with 4 samples.

Results

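Annexins are proteins that bind acidic phospholipids, such as phosphatidylserine, when calcium rises, through a conserved core of repeats that is preceded by a tail differing from member to member. They help to organise membrane domains, vesicle traffic and the patching of torn plasma membranes, and several of them work together with small calcium-binding S100 proteins. The 9 annexin genes described here (Anxa1, Anxa2, Anxa3, Anxa4, Anxa5, Anxa6, Anxa7, Anxa8 and Anxa11) were taken from the 27542 genes and transcribed loci of the study's expression table by their symbols, and each had 1 row. They are 9 of 12 annexin genes in that table. The other three, Anxa9, Anxa10 and Anxa13, stayed under 1 FPKM in both conditions, Anxa9 being the highest of them at 0.538 FPKM in the knockdown against 0.393 FPKM in control cells. FPKM counts sequenced fragments relative to transcript length and to the depth of the library, so that levels of different genes can be set side by side.

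Total RNA was sequenced from embryonic stem (ES) cells of the mouse line TBV2, kept in serum with the self-renewal cytokine LIF; the series description adds feeder cells and a high density. The control was 1 library of cells labelled N.T., and the knockdown (KD) was 3 libraries from separate clones with lowered T-UCstem1, a long noncoding RNA with an ultraconserved element. The labels do not say how the knockdown was made or whether the control was itself a clone. The authors combined the 3 clones into 1 FPKM per gene, so neither condition has a measured spread, and no SD or n accompanies the values below. T-UCstem1 itself was not analysed here. The genes were chosen by family name with their KD and control FPKM known, and their differences are therefore a description. The marks and q-values (p-values adjusted for the number of genes tested) are those of the authors' deposited table.

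The annexins fell into a set with higher levels in the KD and a set with almost equal levels. Anxa1, Anxa2, Anxa3 and Anxa5 were 2.63 to 5.18 times higher in the KD, and Anxa4, Anxa6, Anxa7 and Anxa11 lay between 0.915 and 1.23 times the control. Anxa8 was in between at 1.78 times, at a low level. In the authors' deposited table all 9 were tested, 4 were marked as higher and none as lower. Over all 15477 tested rows 0.963% were marked as higher and 0.187% as lower. No member had an unadjusted Cuffdiff p under 0.05 on the lower side, and the 4 marked members were those under it on the higher side. Over the same 15477 rows 6.10% had such a p on the higher side and 2.78% on the lower. Since the genes were picked with these values in view, nothing about the family is read from that contrast.

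Anxa2 forms a complex with S100A10 on the cytosolic face of the plasma membrane and, at the cell surface, binds tissue plasminogen activator and plasminogen. Its level was 75.1 FPKM in KD cells and 18.9 FPKM in control cells, a difference of 56.2 FPKM and the largest of the family in absolute terms. On the scale log2((KD FPKM + 1)/(control FPKM + 1)), used for every log2 fold below, this was 1.93, with q = 0.00815 by the authors' deposited table. Among 11993 named genes with at least 1 FPKM in either condition, Anxa2 went from the 66.2 percentile of level in the control to the 91.4 percentile in the KD. The gene lies on chromosome 9 (mm9, 69301490 to 69339592). The microRNA gene Mir3109 within the same locus was listed at 0 in both conditions.

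Anxa1, first known as a glucocorticoid-regulated inhibitor of inflammation, had the largest log2 fold of the family at 2.14. It stood at 22.6 FPKM in KD cells and 4.37 FPKM in control cells, and q was 0.00815 by the authors' deposited table. Its rank was 73 from the top among the 11993 named genes. The row covers chromosome 19 from 20447924 to 20465161 (mm9). Anxa3, an annexin abundant in neutrophils, was lower than Anxa1 in both conditions. Its values were 12.4 FPKM in KD cells and 2.92 FPKM in control cells, a log2 fold of 1.77 with q = 0.0440 by the authors' deposited table (chromosome 5, 97222404 to 97274987).

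Anxa5, the phosphatidylserine-binding protein used as a probe of dying cells, had the smallest log2 fold of the 4 marked members, 1.32. Its levels were 28.0 FPKM in KD cells and 10.6 FPKM in control cells, with q = 0.0352 by the authors' deposited table (chromosome 3, 36347846 to 36374809). By that table Anxa3 was the marked member nearest to the threshold of 0.05, and Anxa8 had the lowest q of the unmarked members, 0.905. Their unadjusted Cuffdiff p-values were 0.0005 for Anxa3 and 0.177 for Anxa8. The adjustment brings most unmarked genes near 1, and the members were picked with these values known. No gap between marked and unmarked annexins is therefore read from the q-values.

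**Figure D1:**
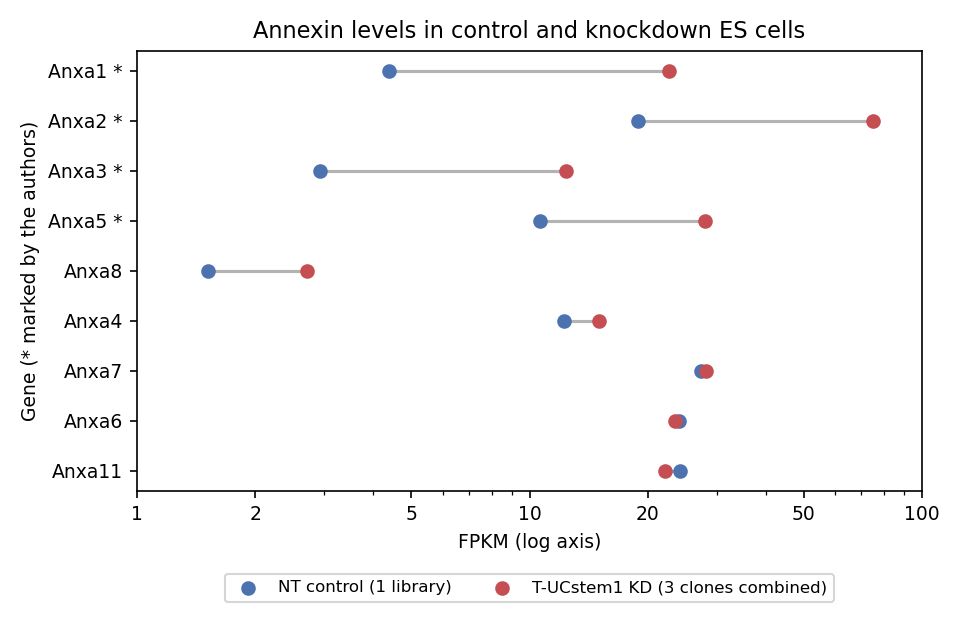
Level of each annexin gene in FPKM (log axis) in the control (blue, 1 library) and the KD (red, 3 clones combined by the authors), ordered by log2 fold with the largest on top; no error bars can be drawn. Anxa1, Anxa2, Anxa3 and Anxa5 have long connecting lines, whereas the 2 points of Anxa6, Anxa7 and Anxa11 nearly touch.

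The annexins with long tails or a doubled core were at similar levels in both conditions. Anxa7, also called synexin, which promotes the joining of secretory granule membranes, was at 28.2 FPKM in KD cells and 27.3 FPKM in control cells. Anxa11, whose proline-rich tail takes part in cell division and in tethering RNA granules to lysosomes, was at 22.1 FPKM against 24.1 FPKM. Anxa6, which has a doubled annexin core and acts on endosomes and cholesterol transport, was at 23.4 FPKM against 24.0 FPKM. Their log2 folds were 0.042, -0.12 and -0.034, and each had q = 0.999 by the authors' deposited table. These 3 genes were the most abundant annexins of the control. GENCODE M21 also annotates the antisense gene Anxa11os inside Anxa11. A use of strand in counting is not stated, so reads of the pair cannot be told apart.

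Anxa4, an annexin of secretory epithelia, was at 15.1 FPKM in KD cells and 12.2 FPKM in control cells, a log2 fold of 0.28 that was not marked. It lies on chromosome 6, where the median log2 fold of 551 named genes was 0.26. On the chromosomes of the other members the medians lay between -0.017 and 0.039. Anxa8, an annexin of late endosomes and stratified epithelia, was the least abundant member, at 2.71 FPKM in KD cells and 1.52 FPKM in control cells. Its log2 fold of 0.56 was not marked. The Anxa8 locus in the table (chromosome 14, 34864316 to 34915940, mm9) also holds Antxrl and A630023A22Rik, both listed at 0 in KD and control cells. How reads were assigned among overlapping models is not stated.

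Because the members did not shift alike, their order by level differed between the conditions. In the control the order from the top was Anxa7, Anxa11, Anxa6, Anxa2, Anxa4, Anxa5, Anxa1, Anxa3 and Anxa8. In the KD it was Anxa2, Anxa7, Anxa5, Anxa6, Anxa1, Anxa11, Anxa4, Anxa3 and Anxa8. With no replicate values it cannot be said which neighbours in these orders differ. Anxa2 was at 0.693 of the level of Anxa7 in the control and at 2.67 times that level in the KD.

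The summed level of the 9 annexins was 229.6 FPKM in KD cells and 126.1 FPKM in control cells, a ratio of 1.82. The 4 marked members made up 29.2% of the sum in the control and 60.2% in the KD. Together they were higher by 101.3 FPKM of the total difference of 103.5 FPKM. The 5 unmarked members summed to 91.5 FPKM against 89.3 FPKM, a ratio of 1.02. Anxa2 alone took 15.0% of the summed annexin level in the control and 32.7% in the KD. Without Anxa2 the ratio of the sums was 1.44.

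**Figure D2:**
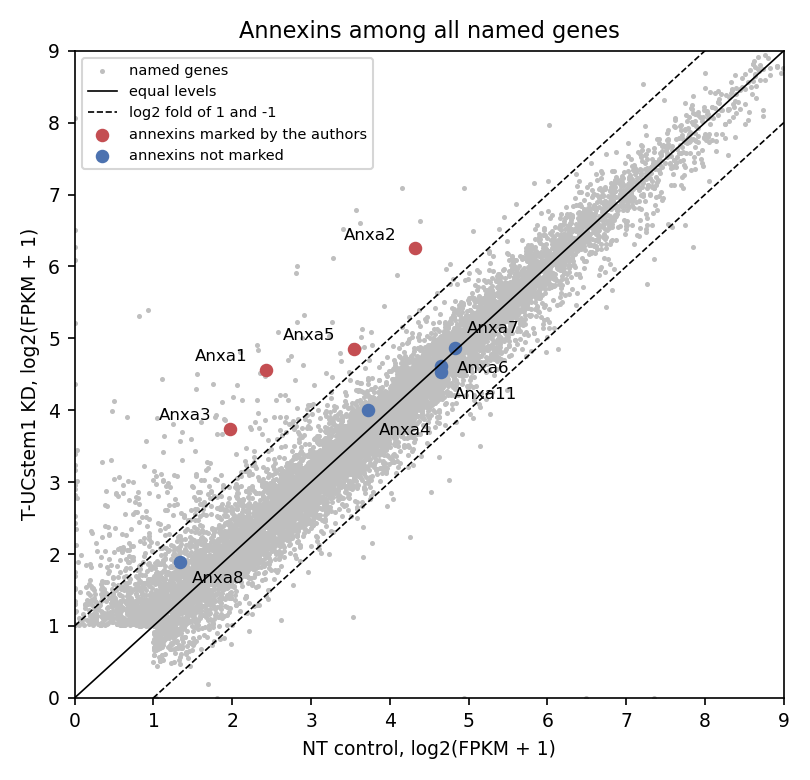
Level of 11993 named genes with at least 1 FPKM in either condition (grey), as log2(FPKM + 1) in the control (horizontal) and the KD (vertical); axes end at 9, which leaves 143 genes outside. The 4 marked annexins (red) lie above the upper dashed line of a log2 fold of 1 and the 5 unmarked ones (blue) lie between the dashed lines.

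By size alone, 4 of 9 members had a log2 fold of 1 or more and 0 of 9 had -1 or less. The shares of all 11993 named genes past the same folds were 3.19% and 0.525%. The median log2 fold of the 9 members was 0.56, while that of the named genes was 0.021 with quartiles of -0.16 and 0.22. The family median is the value of Anxa8, the least abundant member. It lies between the 4 marked members and the other unmarked ones and describes neither set. All 9 members reached 1 FPKM in either condition, so none was lost to the minimum level.

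The 250 bases before the RefSeq start of transcription (build GRCm38.p6) are shown for Anxa1, Anxa2 and Anxa5, which were higher in the KD, and for Anxa7 and Anxa11, which were at similar levels, so that the sequences of both sets can be read side by side. RefSeq entries were matched for 7 of 9 members (Anxa1, Anxa2, Anxa4, Anxa5, Anxa7, Anxa8 and Anxa11). Each sequence reads 5′ to 3′ on the strand of the gene, and capitals mark a match on either strand to any of 5 motifs. These are TGANTCA, bound by AP-1 factors, GGAATG, bound by factors of the TEAD family, AGATAA, bound by the zinc-finger factors of the Gata family, CACGTG, the letters known as an E-box, and TATAAA, the core promoter element that places the start of transcription; no pair of matches overlapped in the windows shown.
Anxa1: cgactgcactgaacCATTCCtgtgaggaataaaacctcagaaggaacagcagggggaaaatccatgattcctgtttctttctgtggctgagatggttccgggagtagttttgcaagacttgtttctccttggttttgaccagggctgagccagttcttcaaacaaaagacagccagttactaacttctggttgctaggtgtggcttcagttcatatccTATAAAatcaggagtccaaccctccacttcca
Anxa2: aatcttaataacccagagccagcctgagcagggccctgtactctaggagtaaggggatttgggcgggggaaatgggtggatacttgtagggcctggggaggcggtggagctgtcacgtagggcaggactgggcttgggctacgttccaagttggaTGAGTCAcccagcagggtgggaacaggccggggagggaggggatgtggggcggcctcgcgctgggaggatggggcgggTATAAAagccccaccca
Anxa5: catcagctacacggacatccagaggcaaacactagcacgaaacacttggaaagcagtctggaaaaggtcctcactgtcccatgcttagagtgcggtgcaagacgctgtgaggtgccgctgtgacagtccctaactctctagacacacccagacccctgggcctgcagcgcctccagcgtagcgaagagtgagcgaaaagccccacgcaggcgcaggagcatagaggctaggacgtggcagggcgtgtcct
Anxa7: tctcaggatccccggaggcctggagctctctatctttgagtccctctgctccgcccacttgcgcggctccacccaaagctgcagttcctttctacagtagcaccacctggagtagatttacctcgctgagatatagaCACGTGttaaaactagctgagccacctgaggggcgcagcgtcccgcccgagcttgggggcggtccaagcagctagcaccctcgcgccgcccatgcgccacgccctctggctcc
Anxa11: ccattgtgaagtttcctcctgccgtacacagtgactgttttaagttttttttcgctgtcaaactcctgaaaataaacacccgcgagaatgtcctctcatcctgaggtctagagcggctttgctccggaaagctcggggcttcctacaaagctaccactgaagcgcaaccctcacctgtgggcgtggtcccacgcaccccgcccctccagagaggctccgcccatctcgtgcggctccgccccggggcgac
These are chr19:20390672-20390921 (minus strand), chr9:69453433-69453682 (plus strand), chr3:36475888-36476137 (minus strand), chr14:20479942-20480191 (minus strand, 1 of 2 entries of Anxa7) and chr14:25841905-25842154 (plus strand).

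Anxa1 and Anxa2, the pair with the largest log2 folds, each had TATAAA close to the start, at 32 to 27 and 17 to 12 bases before it. That letter group occurred, on either strand and at any position, in 12.4% of 32851 promoter entries of the same length. The share with a match close to the start was not counted. The Anxa2 window also held TGAGTCA, a form of the AP-1 motif, at 95 to 89 bases before the start, which 6.75% of all entries matched. Anxa1 had CATTCC, the reverse of the TEAD motif (12.6% of entries), at 236 to 231. The Anxa5 window had no match to any of the 5 motifs, nor did that of Anxa11. The Anxa7 window shown had CACGTG, found in 6.02% of entries, and 1 of 2 Anxa4 entries had AGATAA, found in 9.99%. These are matches of letters, which do not show that a factor binds there.

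The base composition of the windows overlapped between the marked and unmarked sets. The Anxa1 window had a GC content of 46.0% and 2 CpG pairs, and the Anxa2 window 62.4% and 9 CpG pairs. Anxa5 had 58.8% and 13 CpG pairs, close to Anxa11 with 58.0% and 17 and to the Anxa7 window shown with 62.0% and 16. Of the windows not shown, the Anxa4 entries had 42.0% with 2 CpG pairs and 64.8% with 13, the Anxa8 entry 58.0% with 4, and the other Anxa7 entry 42.4% with 2. The medians over all entries were 52.4% and 6 CpG pairs.

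The coding parts in GENCODE M21 show how the members differ in length. Anxa1, Anxa2, Anxa3 and Anxa5 code for 346, 339, 323 and 319 residues, and Anxa4 and Anxa8, of the unmarked set, are of the same size at 319 and 327. Anxa7 and Anxa11 are longer, at 485 and 503 codons, and Anxa6 has 673. All 4 marked members were thus of the short form, as were 2 of 5 unmarked ones. Across the 36 pairs of members the coding sequences were 54.3% to 65.0% identical over aligned bases. The longest run of identical bases shared by any pair of these transcripts was 18, so the genes are related but are not near-identical copies.

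The tails that bind S100 proteins are coded at the start of the reading frame. The first 36 coding bases (12 codons) of Anxa1 and Anxa2 are shown because both genes were higher in the KD and these tails hold the contacts with S100A11 and S100A10. They read 5′ to 3′, with the start codon in capitals (GENCODE M21).
Anxa1: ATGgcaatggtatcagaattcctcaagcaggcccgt
Anxa2: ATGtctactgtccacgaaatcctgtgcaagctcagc

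S100a10 and S100a11 had smaller ratios of KD to control than the annexins they bind. S100a10, the partner of Anxa2, was at 85.8 FPKM in KD cells and 60.3 FPKM in control cells, and S100a11, the partner of Anxa1, was at 130.2 against 85.0 FPKM. Neither was marked, with q-values of 0.806 and 0.664 in the authors' deposited table. Anxa2 was at 0.314 of the level of S100a10 in the control and at 0.876 of it in the KD. Anxa1 was at 0.0514 of the level of S100a11 in the control and at 0.174 in the KD. Whether these differences between partner and annexin exceed the spread between cultures could not be tested.

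A list of 15 annexin partners and bound proteins held 14 genes of the table, of which 10 were tested. Of these, by the authors' deposited table, 2 rose, none fell and 8 were not marked. Those that rose were S100a4 (68.6 against 8.70 FPKM) and S100a6 (134.8 against 29.7 FPKM), calcium-binding proteins of motile cells that can bind annexins. The share of all tested rows marked as higher was 0.963%. On the lower side no partner had an unadjusted Cuffdiff p under 0.05, and 4 had one on the higher side, beside 2.78% and 6.10% of all tested rows. The median log2 fold of the 10 partners with at least 1 FPKM was 0.56, beside 0.021 over all named genes. Pdcd6, the calcium sensor ALG-2 that binds Anxa7 and Anxa11, was at 42.2 against 43.0 FPKM.

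Of the genes for molecules that Anxa1 and Anxa2 meet outside the cell, Plg, Fpr1 and Fpr2 were near 0 in both conditions, unlike Plat. Plat, tissue plasminogen activator, was at 4.72 FPKM in KD cells and 0.865 FPKM in control cells, just outside the mark with q = 0.0505 by the authors' deposited table. Plat, Plg, Fpr1 and Fpr2 were named after their values were seen. Plg, plasminogen, was at 0.00621 and 0.0102 FPKM. The formyl peptide receptor genes Fpr1 and Fpr2, whose products bind Anxa1, were at 0.0306 and 0.0146 FPKM in the KD. Fpr1 was at 0.0334 FPKM in control cells, and Fpr2 was listed at 0 there.

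Genes of plasma membrane repair, a process in which annexins seal the torn edge, included Capn2 and Cav1 among those marked as higher. All 20 genes of that list were tested, 2 rose, none fell and 18 were not marked in the authors' deposited table, where 0.963% of all tested rows were marked as higher. Capn2, a catalytic subunit of the calcium-activated protease calpain, rose from 5.43 to 14.0 FPKM, with a log2 fold of 1.22. Cav1, the coat protein of caveolae, rose from 0.459 to 6.01 FPKM. The shared calpain subunit Capns1 was at 192.6 against 162.6 FPKM, and the membrane scission gene Chmp4b at 94.9 against 70.7 FPKM. Chmp2a shared a row with Ube2m and that row was at 168.9 against 133.1 FPKM. Myof, myoferlin, named after its value was seen, was at 25.7 against 14.6 FPKM with q = 0.0713 by the authors' deposited table. The list median was 0.24 over 19 genes with at least 1 FPKM. An unadjusted Cuffdiff p under 0.05 was seen for 4 repair genes on the higher side and 0 on the lower, beside 6.10% and 2.78% of all tested rows.

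Other proteins that bind phospholipids in a calcium-dependent way, such as copines and synaptotagmins, had no marked gene among 19 tested, a count near the 0.963% of all tested rows marked as higher. By unadjusted Cuffdiff p under 0.05, 2 of the 19 were higher and 0 lower, against 6.10% and 2.78% of all tested rows. Those 2, named after their values were seen, were Pla2g4a, a phospholipase that releases arachidonic acid, at 2.00 against 0.399 FPKM, and the copine gene Cpne2 at 2.02 against 0.747 FPKM. The median log2 fold of the 16 with at least 1 FPKM was 0.018, with 8 above 0 and 8 below. Esyt1, an extended synaptotagmin that tethers the endoplasmic reticulum to the plasma membrane, was at 20.0 FPKM in KD cells and 18.4 FPKM in control cells. Cpne1 and Syt9 were in rows merged with other genes (Rbm12 and Rbmxl2), at 55.0 against 45.7 FPKM and 62.4 against 80.0 FPKM.

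Genes that expose phosphatidylserine, the lipid Anxa5 binds, or return it to the inner leaflet also had no mark among 10 tested, again near the share of 0.963%. By unadjusted Cuffdiff p under 0.05, 3 were higher and 1, Atp11b, lower, beside 6.10% and 2.78% of all tested rows, and the list median was 0.14. The 3 higher ones, named after their values were seen, were the phospholipid scramblase genes Plscr2 (1.48 against 0.127 FPKM) and Plscr1 (20.3 against 12.2 FPKM) and the scramblase gene Ano6 (17.2 against 11.8 FPKM). The flippase genes Atp11b and Atp11a were at 39.0 against 53.2 FPKM and 22.0 against 29.1 FPKM. Their shared subunit gene Tmem30a was at 25.7 against 24.0 FPKM. Pdcd6 stands in both the partner and repair lists, and Plscr1 in both the partner list and this one.

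**Figure D3:**
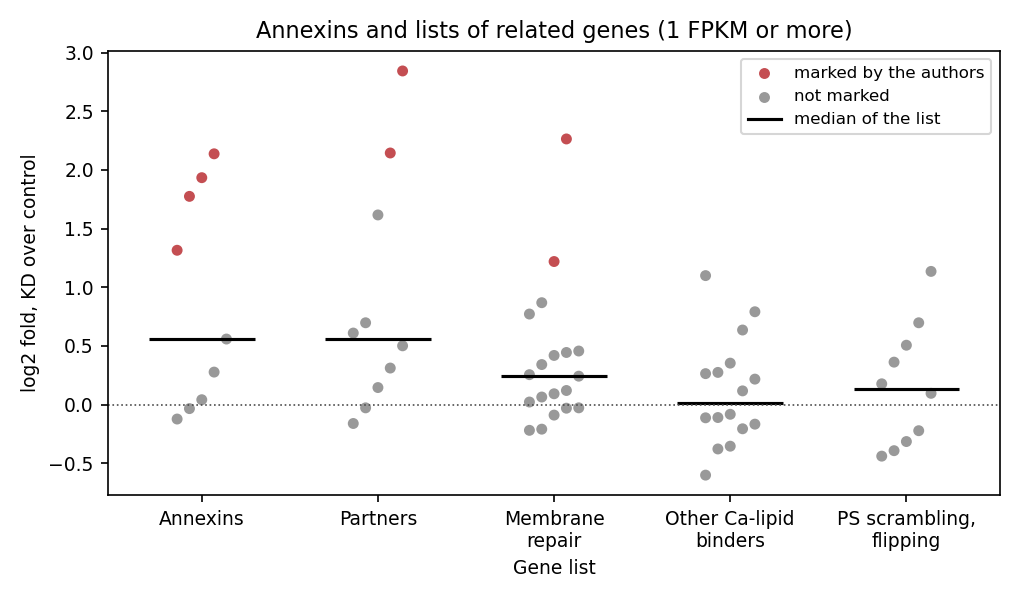
Log2 fold of KD over control for annexins and for 4 lists of related genes, each point a gene with at least 1 FPKM in either condition, red where marked by the authors; horizontal bars are list medians, at 0.56, 0.56, 0.24, 0.018 and 0.14 from left to right. Marked genes occur among the annexins, the partners and the repair genes.

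Most endoderm markers, and fewer markers of other cell types that an ES culture can contain, were marked as higher, as the 4 annexins were. Of 15 extraembryonic endoderm markers 13 were tested, and 12 rose, none fell and 1 was not marked in the authors' deposited table. For this and the lists that follow, the shares of all tested rows were 0.963% marked as higher and 0.187% as lower. Their summed level was 720.3 FPKM in KD cells and 127.1 FPKM in control cells. Marked ones with the largest log2 folds were Col4a1 (109.4 against 10.9 FPKM) and Col4a2 (63.0 against 6.06 FPKM). Lamb1 (96.5 against 11.3 FPKM) and Cubn (21.6 against 1.93 FPKM) came next. The unmarked tested one, Amn, was at 7.09 against 0.601 FPKM. By unadjusted Cuffdiff p under 0.05, 13 were higher and 0 lower, beside 6.10% and 2.78% of all tested rows. The median log2 fold of the 13 with at least 1 FPKM was 2.29. Ttr and Afp, carrier proteins of visceral endoderm, were listed at 0 in the control and at 0.532 and 0.0522 FPKM in the KD. Of 15 feeder fibroblast markers, which include S100a4 of the partner list, 10 were tested, 4 rose, none fell and 6 were not marked. The sum was 134.4 FPKM against 27.3 FPKM, of which S100a4 alone was 68.6 against 8.70 FPKM. Of the 9 with at least 1 FPKM, 8 had a log2 fold above 0 and 1 below. Their median log2 fold was 1.27. Besides S100a4, the marked ones were Tnc (16.3 against 2.66 FPKM), Bgn (13.3 against 2.05 FPKM) and Fbln2 (14.3 against 2.48 FPKM). By unadjusted Cuffdiff p under 0.05, 7 of the 10 tested were higher and 0 lower, beside 6.10% and 2.78% of all tested rows. The unmarked Col1a2 was at 4.03 against 1.12 FPKM (q = 0.0505 by the authors' deposited table). Thy1 and Pdgfrb, both unmarked, were at 7.06 against 5.08 FPKM and 2.57 against 2.73 FPKM. Lum was listed at 0 in both conditions and Col3a1 was at 0.244 against 0.0628 FPKM. The 8 trophectoderm markers summed to 51.3 FPKM against 30.6 FPKM, with 2 of 5 tested marked higher. Cdx2 and Elf5 were listed at 0 in the control and at 0.189 and 0.0374 FPKM in the KD. The marked trophectoderm genes were Krt8 (17.5 against 5.08 FPKM) and Krt18 (14.0 against 2.43 FPKM). Tfap2c was at 16.5 against 21.2 FPKM and Eomes at 1.05 against 1.02 FPKM, neither marked. Macrophage and blood markers in rows of their own summed to 0.629 against 0.165 FPKM over 6 genes, and Emr1 and Tyrobp were listed at 0 in the control.

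ES cell markers were abundant in both conditions, and none of 8 was marked. Neither side held an unadjusted Cuffdiff p under 0.05 among them. Over all tested rows 0.963% were marked as higher and 0.187% as lower. Such a p was seen for 6.10% on the higher side and 2.78% on the lower, so with 8 genes counts of 0 say little. The 7 ES cell markers in rows of their own summed to 3386 FPKM in KD cells and 3307 FPKM in control cells. In bulk RNA, more cells of a type and more RNA per cell cannot be told apart. The part of endoderm, fibroblast or trophectoderm cells in the annexin levels was not tested.

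The settings behind these values altered the sizes more than the pattern. With a pseudocount of 0.1 or 5 FPKM in place of 1, with the folds recentred on the median of the named genes, or with upper quartile scaling, the same 4 annexins had a log2 fold of 1 or more. The share of all named genes past that fold was 5.78% with 0.1 FPKM and 1.03% with 5 FPKM. It was 3.11% with recentring and 3.1% with upper quartile scaling, beside 3.19% with 1 FPKM. Anxa1 ranged from 1.56 to 2.35, Anxa2 from 1.74 to 1.98, Anxa3 from 1.14 to 2.05 and Anxa5 from 1.08 to 1.39. Anxa8 ranged from 0.24 to 0.80. Anxa6 and Anxa11 were below 0 and Anxa7 and Anxa4 above 0 under each of these settings, all with sizes under 0.30.

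**Figure D4:**
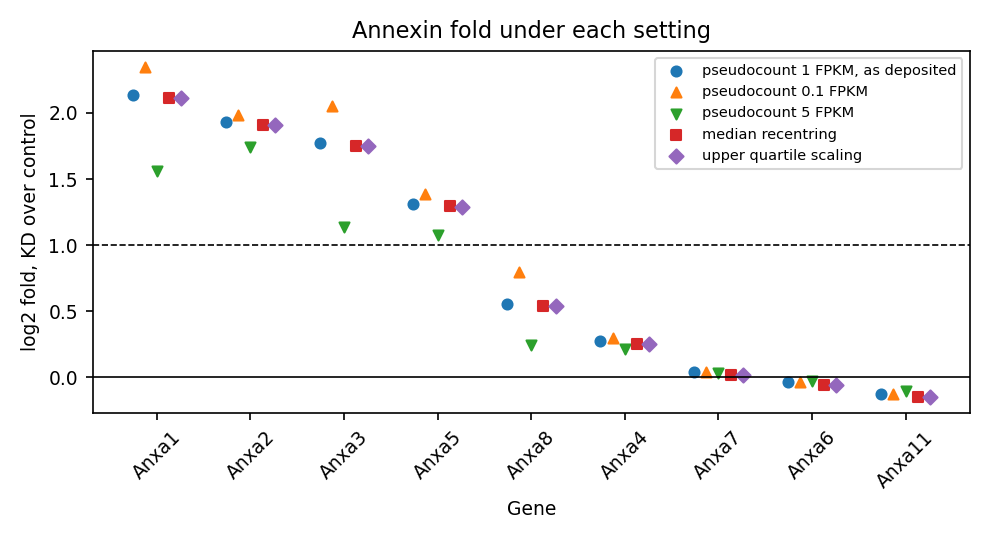
Log2 fold of KD over control for each annexin (horizontal axis) with a pseudocount of 1 FPKM on the deposited values and under 4 other settings (symbols); the dashed line is a log2 fold of 1. Anxa1, Anxa2, Anxa3 and Anxa5 stay above the dashed line under each setting and the other 5 stay below it.

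The precision of the low values is limited by depth, which the table does not state. Low FPKM values of the control, multiplied by transcript length in kb, crowded around 0.0335, with 69 of 214 genes in the densest window. Taking this as the contribution of a single fragment, the control levels rest on about 85 fragments for Anxa8, 139 for Anxa3, 218 for Anxa1, 550 for Anxa5, 818 for Anxa2 and 2369 for Anxa7. Counting error alone would then be about 10.8% for Anxa8 and 8.48% for Anxa3. It leaves out the spread between cultures, and no such figure was derived for the combined clones.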

How the data were processed

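RNA of 1 control library and 3 KD clones was sequenced. The authors used TopHat, Cufflinks and Cuffdiff on mm9, per the submitters' processing notes; versions, gene models and scaling are not given in these sources. Per the file headers, each row of the deposited table holds 1 FPKM for treated and 1 for control cells. Treated was taken as the KD. The p-value and q-value are those the authors deposited, and the largest q among marked rows was 0.0478. The smallest p was 5e-05, shared by 95 rows. With 1 control library they hold no measured spread between control cultures.

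For each symbol the row with the highest mean FPKM was kept. Log2 folds used a pseudocount of 1 FPKM, which understates changes of low genes. A level minimum of 1 FPKM in either condition was set for medians and named-gene shares. With 1 value per condition the FPKM allow no test. Locus starts were written counting from 1, since the length of 6768 loci equalled that of the RefSeq gene only if deposited starts count from 0 (396 if they count from 1).

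The members and lists were chosen with earlier results of these data known. All annexins were named. Per list, up to 4 marked genes with the largest fold and up to 3 unmarked genes with the highest mean FPKM were named. Exceptions are stated where they occur. Marker lists are given by their sums, counts, some medians, genes at or near 0 and some of the genes of that rule. Alternatives were 2 other pseudocounts, 2 other scalings, other FPKM minimums, summed rows and q over expressed rows. Genes with the most similar pattern were not sought, since 2 conditions give no measure of likeness. Promoters came from RefSeq tables and coding sequences from GENCODE M21; coding sequences were aligned globally with Biopython 1.88. Fold and adjustment were tested on simulated data, and row selection on a small made-up table. Changed genes were given very small p-values, so the test of the adjustment could hardly fail. Python 3.11.15, pandas 2.3.3 and numpy 2.4.6 were used.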

Additional observations from a re-analysis of the deposited data

How the results depend on the processing

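Across 62 alternative values for the annexin folds, counts, median and sum, 61 moved by less than 1.5 times (for log2 folds, 1.5 times in the fold itself), with no change of direction. Some of these values could not differ. Each member had a single row, so summing rows changed nothing, and all members reached 1 FPKM, so dropping the minimum changed nothing. The tally is therefore not a measure of robustness. The value that moved further was that of Anxa3, whose log2 fold was 1.14 with a pseudocount of 5 FPKM against 1.77 with 1 FPKM. The number of marked annexins stayed at 4 higher and 0 lower when q was recomputed over tested rows with at least 1 FPKM. Of all those rows, 1.2% were then called higher and 0.223% lower. The median log2 fold of the family ran from 0.24 with a pseudocount of 5 FPKM to 0.80, reached with a pseudocount of 0.1 FPKM and with a minimum of 5 FPKM. Recentring removed a shift of 0.021 on the log2 scale, and upper quartile scaling changed KD levels by -0.024 on that scale. Neither could move a fold far. No paired analysis was possible because the control has 1 library and the KD clones were combined into 1 value. For the same reason no clone could be left out in turn. Depth limits Anxa8 and Anxa3 most.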

Other observations

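Of the 18 nearest named rows, 1 on each side of each member, 8 were tested, 0 were marked by Cuffdiff, 0 had an unadjusted Cuffdiff p under 0.05 and 4 were listed at 0 in both conditions. Over all tested rows 0.963% were marked as higher, and 6.10% had such a p on the higher side and 2.78% on the lower, so with 8 neighbours counts of 0 say little. The tested neighbours had log2 folds between -0.39 and 0.24. Beside Anxa2, Narg2 was at 7.35 FPKM in KD cells and 8.17 FPKM in control cells, 20609 bp away. Beside Anxa3, the matrix gene Fras1 was at 0.131 and 0.0582 FPKM, 8657 bp away. The noncoding row 1810062G17Rik, 50 bp from Anxa5, was at 0.0712 FPKM in KD cells and listed at 0 in the control. Gmcl1 and Aak1, on either side of Anxa4 on chromosome 6, had log2 folds of 0.24 and 0.23, close to the 0.28 of Anxa4. For Anxa7 the nearest tested rows were Ttc18 at 0.268 against 0.550 FPKM and Mss51 at 1.80 against 1.79 FPKM.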
